A study of Mus musculus with 4 samples.

Results

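Fibroblasts that carry Pi16, Dpp4 or Pcolce2 transcripts were examined in mouse digits after amputation through the middle phalanx (P2), an injury that ends in fibrosis and not in regrowth. A barcode was kept when it held at least 500 genes, at least 1000 UMIs (unique molecular identifiers, each standing for a captured transcript) and at most 10% mitochondrial UMIs. It counted as stromal when it had no Ptprc or Cdh5 UMI, at most 2 Rgs5 UMIs and at least 2 UMIs of Pdgfra plus Dcn. It was taken as a Pi16/Dpp4/Pcolce2 cell, called a gated cell below, when the UMIs of these 3 genes summed to at least 3 and exceeded each of 6 other 3-gene sums that mark other digit stroma (C4b, Gdf10 and Cyp2f2; Prss35, Spock3 and Crabp1; Chad, Omd and Scube1; Scx, Tnmd and Thbs4; Ibsp, Sp7 and Alpl; Hapln1, Prg4 and Inhba). The rule found 2323 cells among 11674 stromal cells, 39266 kept cells and 50625 barcodes. Because these 3 genes chose the cells, their levels, and every difference between gated cells and other stroma, are given as description.

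The study deposited 4 single-cell RNA libraries, 1 per group: homeostatic unamputated P2 tissue, and fibrosing P2 tissue at 12, 17 and 28 days post-amputation (dpa). All mice were wild-type FVB/NJ, 8 weeks old, with both sexes pooled according to the labels. Cells were freed by trypsin and then collagenase I. Red cell lysis and a sort for cells excluding propidium iodide preceded droplet capture. The labels name no number of animals per library.

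In the order unamputated, 12, 17 and 28 dpa, which holds for every series of 4 values below, the libraries gave 279, 178, 662 and 1204 gated cells with a median of 21737, 13683.5, 14022 and 9937.5 UMIs per cell. Their summed UMIs were 6324367, 2621119, 10071771 and 13483703, so the 12 dpa values are the least precise. With 1 library per group there is no replicate spread, no test of a condition was possible, and every interval covers counting error only. Expression is given as CPM, the counts scaled to a common total, summed over the gated cells of a library. The gated cells of no library showed the pooled sexes that the labels give, and the 12 dpa library stood apart from the others: at least 2 UMIs of Xist, with no Y-linked UMI, marked 62 of its 178 gated cells as female, and the converse rule marked none as male, whereas the other 3 libraries held 260, 491 and 764 male-marked and 0 female-marked gated cells. Sex and the 12 dpa time point therefore cannot be told apart among gated cells. Pairs of libraries shared 19 to 87 barcodes, and no gated cell's barcode was gated in a second library.

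Pi16 encodes a secreted peptidase inhibitor, Dpp4 a cell-surface exopeptidase that trims peptide hormones and chemokines, and Pcolce2 an extracellular protein that enhances the cleavage of procollagen C-propeptides. Fibroblasts with Pi16 and Dpp4 lie in the adventitia of vessels and in fascia in many mouse tissues, where they are known as universal or adventitial fibroblasts and are regarded as progenitors of more specialised fibroblasts. On GRCm38 (GENCODE M21), Pi16 lies on the plus strand at chr17:29317680-29330593, Dpp4 on the minus strand at chr2:62330073-62412231 and Pcolce2 on the plus strand at chr9:95637601-95698096. The RefSeq promoter windows of these genes, 300 bases each on GRCm38.p6, are shown because Pi16 and Pcolce2, which together choose most of the cells, followed different courses after amputation. The Pi16 window follows the RefSeq start site, which lies inside the longer GENCODE span given above, so the 2 annotations differ in where the gene starts. That of Myoc is added because, of the genes named below, it had the highest ratio at 28 dpa.

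Pi16 (chr17:29318632-29318931, plus strand): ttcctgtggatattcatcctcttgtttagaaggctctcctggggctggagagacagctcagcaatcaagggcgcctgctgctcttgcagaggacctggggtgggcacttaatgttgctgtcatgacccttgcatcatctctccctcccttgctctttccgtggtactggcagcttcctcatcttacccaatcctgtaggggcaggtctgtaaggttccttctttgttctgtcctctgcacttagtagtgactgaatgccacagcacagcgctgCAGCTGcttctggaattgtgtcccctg
Dpp4 (chr2:62412182-62412481, minus strand): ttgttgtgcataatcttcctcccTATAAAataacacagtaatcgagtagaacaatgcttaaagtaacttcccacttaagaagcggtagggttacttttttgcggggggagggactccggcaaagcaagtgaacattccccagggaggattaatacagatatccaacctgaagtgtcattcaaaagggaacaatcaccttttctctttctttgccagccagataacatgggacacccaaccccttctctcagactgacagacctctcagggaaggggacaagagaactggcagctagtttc
Pcolce2 (chr9:95637378-95637677, plus strand): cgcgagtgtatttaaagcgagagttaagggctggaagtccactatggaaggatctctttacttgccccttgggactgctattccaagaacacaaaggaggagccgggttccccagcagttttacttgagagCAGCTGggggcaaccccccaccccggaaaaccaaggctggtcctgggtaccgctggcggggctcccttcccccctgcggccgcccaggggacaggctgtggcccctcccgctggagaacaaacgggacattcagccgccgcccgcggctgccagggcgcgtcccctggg
Myoc (chr1:162638900-162639199, plus strand): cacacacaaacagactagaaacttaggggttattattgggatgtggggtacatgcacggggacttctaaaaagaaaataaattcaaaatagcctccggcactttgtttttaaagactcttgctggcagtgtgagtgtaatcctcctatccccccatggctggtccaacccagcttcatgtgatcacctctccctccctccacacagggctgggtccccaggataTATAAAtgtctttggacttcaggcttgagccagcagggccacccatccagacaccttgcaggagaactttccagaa

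Capitals mark the E-box CAGCTG, which reads the same on both strands, and the TATA box TATAAA, searched on both strands; these letters cannot overlap each other. Both motifs were chosen after these windows had been read. The Pi16 and Pcolce2 windows each held 1 CAGCTG and no TATAAA, and the Dpp4 and Myoc windows each held 1 TATAAA and no CAGCTG. Of 32851 mouse promoter windows of the same length, 16.3% held CAGCTG and 13.6% held TATAAA. A match is a description of the letters only.

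Gated cells made up a larger share of the stroma in the later libraries. They were 11.8% of stromal cells in the unamputated library (279 of 2368, 95% Clopper-Pearson interval 10.5 to 13.1) and 8.00% at 12 dpa (178 of 2226, 6.90 to 9.20). The share was 22.6% at 17 dpa (662 of 2929, 21.1 to 24.2) and 29.0% at 28 dpa (1204 of 4151, 27.6 to 30.4). The 4 intervals did not overlap. As a share of all kept cells the values were 2.33%, 2.56%, 7.62% and 10.3%. The libraries differ in depth, and a deeper cell passes a UMI threshold more easily. For an equal depth, cells under 4000 UMIs were left out and the others were thinned to 4000 UMIs before gating. The shares were then 6.89%, 4.82%, 17.2% and 26.3%, in the same order. Their denominators were 2323, 2096, 2862 and 3609 stromal cells, so the 28 dpa library lost the most. When Pcolce2 was left out and the gate asked for at least 2 UMIs of Pi16 plus Dpp4, the shares were 11.0%, 7.91%, 18.3% and 17.3%: the libraries at 17 and 28 dpa remained above the other 2, but the step from 17 to 28 dpa was gone. A share depends on the other stroma as well, and the Scx, Tnmd and Thbs4 cells took 20.4%, 35.9%, 9.63% and 9.15% of the stromal gate.

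**Figure D1:**
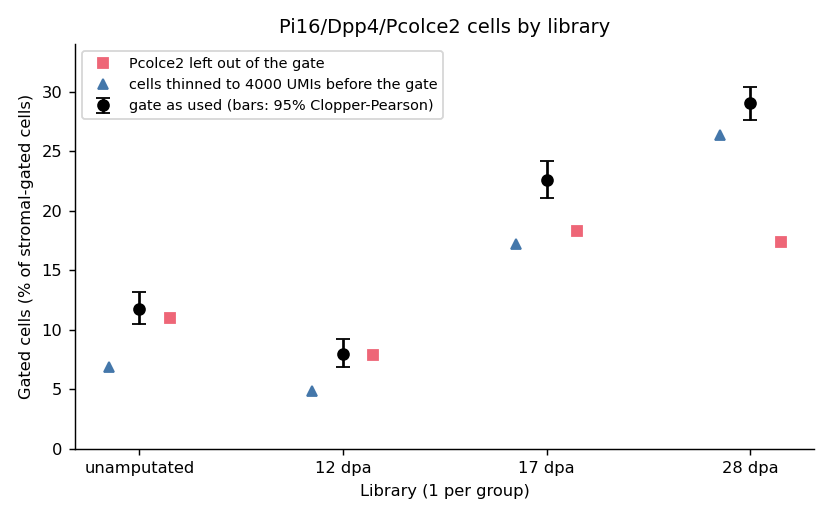
Share of gated cells among stromal cells (y axis, percent) in each of the 4 libraries (x axis). Circles give the gate as used with 95% Clopper-Pearson bars, squares the gate without Pcolce2, and triangles the gate on cells thinned to 4000 UMIs. All 3 versions put 17 and 28 dpa above the unamputated and 12 dpa libraries, and the square at 28 dpa lies below that at 17 dpa.

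The 3 gate genes followed different courses inside the gated cells. Pi16 stood at 685, 926, 951 and 685 CPM, so that the unamputated and 28 dpa libraries were level. Dpp4 stood at 83.2, 57.2, 90.0 and 72.5 CPM, a narrow range with its lowest value at 12 dpa. Pcolce2 stood at 150.4, 116, 401 and 814 CPM, with Poisson intervals of 141 to 160.2 in the unamputated library and 798 to 829 at 28 dpa. At 28 dpa Pcolce2 was thus above its unamputated level while Pi16 was not. The higher Pcolce2 was not confined to the gate: it stood at 11.0, 7.15, 40.2 and 90.5 CPM in the other stromal cells and at 34.5, 26.1, 122 and 236 CPM in cells gated in the same way on C4b, Gdf10 and Cyp2f2. Pi16 in the other stromal cells stood at 24.3, 19.1, 49.4 and 68.4 CPM, highest at 28 dpa. At an equal depth of 4000 UMIs per cell, Pcolce2 was detected in 32.5%, 26.4%, 62.2% and 81.3% of gated cells, and Pi16 in 72.6%, 80.9%, 75.9% and 65.2%. Thinning left out 2, 0, 6 and 58 shallower gated cells. Without thinning, Pcolce2 was detected in 50.9%, 42.7%, 75.8% and 89.1%, and Pi16 in 89.2%, 95.5%, 89.3% and 77.7%.

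**Figure D2:**
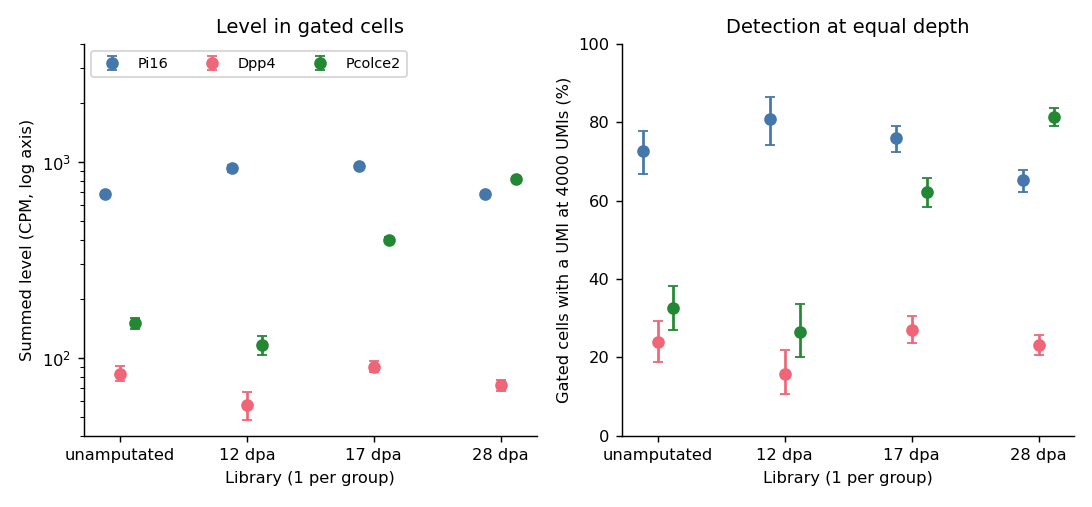
The 3 gate genes in gated cells, by library (x axis). The left plot gives the summed level in CPM on a log axis with 95% Poisson bars, and the right plot the percent of gated cells with a UMI after thinning to 4000 UMIs, with 95% Clopper-Pearson bars. Pcolce2 lies below Pi16 in the first 3 libraries and above it at 28 dpa in both plots.

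The makeup of the gate differed in the same way. Cells with Pi16 and no Pcolce2 UMI were 44.4%, 55.6%, 22.7% and 10.3% of the gated cells at full depth. Cells with both were 44.8%, 39.9%, 66.6% and 67.4%, and cells with Pcolce2 and no Pi16 UMI were 6.09%, 2.81%, 9.21% and 21.8%. At equal depth the last class was 10.8%, 5.06%, 17.1% and 30.5%, again highest at 28 dpa. Free RNA was gauged in cells with a Ptprc UMI and no Pdgfra or Dcn UMI, which had median depths of 6647.5 to 8643 UMIs. Pi16 was detected in 9.94%, 3.46%, 6.78% and 4.36% of them, and Pcolce2 in 0.220%, 0%, 0.707% and 2.57%. At 12 dpa that 0 of 1472 cells allows up to 0.250% by its exact interval. Dpp4 was detected in 7.52%, 3.87%, 4.77% and 2.41% of these cells, and 3.30%, 0.611%, 1.18% and 0.312% of them had at least 3 UMIs of the 3 gate genes together. That share was highest in the unamputated library, where gated cells were 11.8% of the stroma. Whether the cells with a Ptprc UMI express Dpp4 or another gate gene themselves was not tested, so their values may not be free RNA alone. Detection in gated cells is not set against these values, because the gate asked for these transcripts.

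The edge of the gate differed between libraries. In the unamputated library, the 18 gated cells with exactly 3 gate UMIs held 348 CPM of Cd34 and 969 CPM of Clec3b, and the 22 cells just below, with 2, held 272 CPM and 895 CPM. At 28 dpa the 57 gated cells with exactly 3 gate UMIs held 630.4 CPM of Cd34 and 1876 CPM of Clec3b, against 282 and 800.2 CPM in the 84 cells with 2. At 17 dpa the 32 cells with 3 gate UMIs held 448 and 1258 CPM of these genes, against 362 and 1155 CPM in the 37 with 2, and at 12 dpa the 18 cells with 3 held 328 and 1833 CPM, against 255 and 927 CPM in the 13 with 2. Cd55 stood at 305 CPM with 3 and 214 CPM with 2 in the unamputated library and at 261 and 135 CPM at 17 dpa, so the step differed between genes as well. Of the universal markers examined at the edge, only Sema3c at 17 dpa and Mfap5 at 12 dpa were lower in the cells with 3. Sema3c stood at 348 CPM with 3 and 362 CPM with 2, and Mfap5 at 1923 and 2109 CPM. Beyond the gated cells, 199, 111, 303 and 481 stromal cells had at least 3 gate UMIs but an equal or larger sum of another set. At 28 dpa the sum of Hapln1, Prg4 and Inhba equalled or exceeded the gate sum in 265 of these 481 cells. The sum of C4b, Gdf10 and Cyp2f2 did so in 145, and that of Scx, Tnmd and Thbs4 in 140. At 17 dpa the C4b, Gdf10 and Cyp2f2 sum did so in 221 of 303. A cell can be counted under several sets.

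Markers of universal or adventitial fibroblasts that the gate did not use were high in the gated cells. Of 34 listed genes, 32, 32, 33 and 32 reached 5 CPM in gated or other stromal cells, and 30 of them were higher in gated cells in each library. Among those of at least 50 CPM, 25 of 27, 24 of 26, 24 of 26 and 19 of 28 were at least 2-fold higher in gated cells, where 3.47%, 4.74%, 3.1% and 2.49% of all genes were. None was 2-fold lower, against 4.02%, 4.71%, 4.22% and 4.4% of all genes. Cd34, a sialomucin of progenitor cells, stood at 562, 545, 749 and 712 CPM in gated cells and at 122, 63.6, 214 and 250.2 CPM in the rest. Cd55, which shields cells from complement, stood at 413, 464, 383 and 515 CPM against 78.3, 60.5, 74.8 and 163 CPM. Both were higher in gated cells in all 4 libraries. Limch1, Uchl1, Smpd3 and Pla1a stayed below 5 CPM in gated cells throughout, and of these Limch1, Uchl1 and Smpd3 were lower than in the rest in every library.

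Among 3075 genes of at least 50 CPM in every library, 48 (1.56%) were at least 2-fold higher in gated cells in all 4 libraries and 47 (1.53%) at least 2-fold lower. Ranked by the weakest of the 4 ratios, Efemp1 came first. This gene, which encodes the elastic-fibre-associated glycoprotein fibulin-3, stood at 86.8, 76.7, 74.0 and 93.4 CPM against 10.6, 3.49, 13.4 and 16.0 CPM in other stroma, with log2 ratios of 2.93, 4.11, 2.38 and 2.47. Tnxb, which encodes the matrix glycoprotein tenascin-X, stood at 627, 528, 1140.2 and 1162 CPM against 80.4, 23.7, 275 and 336 CPM. The gap to other stroma was widest at 12 dpa for both. The matricellular gene Ccn3 had log2 ratios of 2.53, 3.92, 1.73 and 1.89, and the lipid phosphatase gene Plpp3 had 1.93, 2.78, 1.76 and 1.70. The other 11 of the 15 leading genes were Lrrn4cl, Cd55, Sema3e, Emilin2, Nova1, Cd34, Cd248, Heg1, Fbn1, Rarres2 and Adgrd1. Fbn1, which encodes the microfibril protein fibrillin-1, stood at 3029, 2619, 2478 and 2211 CPM against 948, 856, 763 and 800.1 CPM.

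At the other end, Mmp13, a collagenase gene of bone and cartilage cells, stood at 4.11, 4.58, 13.1 and 13.9 CPM in gated cells and 678, 199.8, 920.5 and 372 CPM in the rest. Tnc, the gene of tenascin-C, a matrix protein of tendon and healing wounds, stood at 175, 151, 52.7 and 58.1 CPM against 933, 768, 586 and 278 CPM. The fibrillar collagen gene Col11a1 stood at 137, 280.0, 74.4 and 30.1 CPM against 1016, 1220.0, 489.5 and 252 CPM. All 3 were lower in gated cells in every library. Gpx3, Rbp4, Tmem176a, Cdh2, Ecrg4, Myo1d and Tnn completed the 10 lowest, with log2 ratios of -1.65 or lower in each library. Contractile genes were also low. Of the listed contractile genes 8 of 10, 8 of 10, 5 of 9 and 3 of 10 were at least 2-fold lower in gated cells, where 4.02%, 4.71%, 4.22% and 4.4% of all genes were, and none was 2-fold higher. Acta2, the smooth-muscle actin gene of myofibroblasts, stood at 52.7, 40.8, 28.9 and 70.6 CPM with log2 ratios to other stroma of -2.37, -3.83, -2.22 and -1.50. Lrrc15, on the same list, had ratios of 0.35, -0.18, 0.89 and 0.83, so it was higher in gated cells except at 12 dpa.

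The gap between gated cells and the rest was narrower in the late libraries. The median log2 ratio over the universal list was 1.68, 2.10, 1.55 and 1.20. Between the unamputated library and 28 dpa, the list median moved by 0.30 on the log2 scale in gated cells and by 1.04 in the other stroma. Ly6c1, a surface glycoprotein gene, shows the pattern: 499, 509, 778 and 1266 CPM in gated cells and 75.0, 57.6, 201 and 470.3 CPM in the rest, so both were highest at 28 dpa. Scara5, which encodes a ferritin receptor, stayed between 271 and 342 CPM in gated cells while the rest stood at 48.3, 14.1, 70.5 and 127 CPM. The remaining stroma was a different mixture in each library, as the share of Scx, Tnmd and Thbs4 cells shows. It also held the 199, 111, 303 and 481 cells with at least 3 gate UMIs that another set's sum kept out. Ly6c1 stood at 213, 176, 560.5 and 892 CPM in those cells. The part of this mixture in the narrower gap was not tested.

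**Figure D3:**
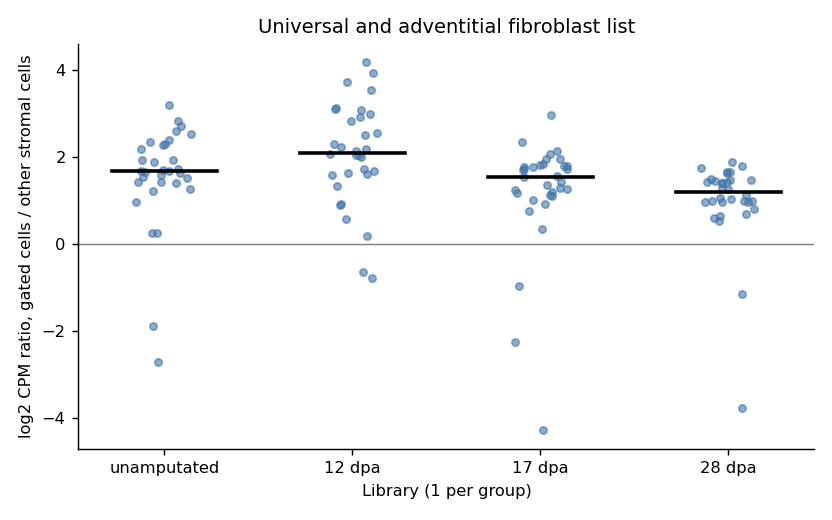
Universal and adventitial fibroblast list, without the gate genes. Each point is a gene of at least 5 CPM, placed by its log2 ratio of CPM in gated cells to CPM in other stromal cells (y axis) in each library (x axis), and the bar is the median. Nearly all points lie above 0, and the bars step from 2.10 at 12 dpa to 1.20 at 28 dpa.

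Another set of fibroblasts, chosen by the same form of gate on C4b, Gdf10 and Cyp2f2, numbered 305, 41, 485 and 306 cells. Gated cells were at least 2-fold above them for 20 of 27, 16 of 26, 13 of 26 and 16 of 28 universal-list genes of at least 50 CPM, and 2-fold below for none, where 2.57%, 2.79%, 1.43% and 2.59% of all genes were above and 3.57%, 2.51%, 2.13% and 5.53% below. The median log2 ratio of the universal list to these cells was 1.32, 1.07, 1.00 and 1.10, highest in the unamputated library and lowest at 17 dpa. Leaving out 12 dpa, where the 41 cells are few, Anxa3, Cd55 and Sema3c led the genes higher in gated cells, ranked by the weakest ratio. Anxa3, an annexin gene, stood at 75.7, 85.1 and 105.4 CPM in the unamputated, 17 and 28 dpa gated cells and at 13.8, 12.5 and 13.6 CPM in the C4b-type cells. Sema3c, a secreted guidance gene, stood at 524, 487 and 381 CPM against 117, 107 and 94.5 CPM. In the opposite direction, Mgp, which encodes an inhibitor of calcification, stood at 379.8, 530.2 and 179.8 CPM in gated cells and at 2884, 3087 and 3365 CPM in the C4b-type cells. These genes were ranked on the same libraries, so their common direction was fixed by the choice.

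Set against the unamputated library, gated cells had genes past 2-fold on both sides at each time. Of the 3955 genes that reached 50 CPM on the higher side, 92 (2.33%) were at least 2-fold higher and 198 (5.01%) at least 2-fold lower at 28 dpa. The counts were 25 (0.649%) and 64 (1.66%) of 3854 at 17 dpa, and 30 (0.767%) and 157 (4.01%) of 3913 at 12 dpa. These 3 comparisons share the unamputated library. The median log2 ratio over all genes of at least 5 CPM was -0.22, -0.07 and -0.14 at 12, 17 and 28 dpa, and 34.2%, 40.7% and 38.2% of these genes were higher than in the unamputated library. Each list median and count below is to be read against these values. In the lists that follow, counts of higher or lower genes are over members of at least 5 CPM in either library, and counts past 2-fold over those reaching 50 CPM on the higher side, called measured. Log2 ratios include a pseudocount of 1 CPM, which their exact counting intervals leave out. Scaling by trimmed mean of M values (TMM) moved these medians to -0.03, 0.03 and 0.05. It also moved the counts to 94 higher and 81 lower at 12 dpa, 36 and 48 at 17 dpa, and 204 and 122 at 28 dpa, so at 12 and 28 dpa the side with more genes changes with the scaling. When cells were thinned to 4000 UMIs before the gate, 155 genes were higher and 462 lower at 12 dpa, 31 and 84 at 17 dpa, and 132 and 236 at 28 dpa. Thinning also changed which cells were gated, leaving 160, 101, 492 and 950, and so the summed UMIs. The comparison with the most genes past 2-fold was 28 dpa as gated at full depth and 12 dpa after thinning, so the times are not ranked.

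**Figure D4:**
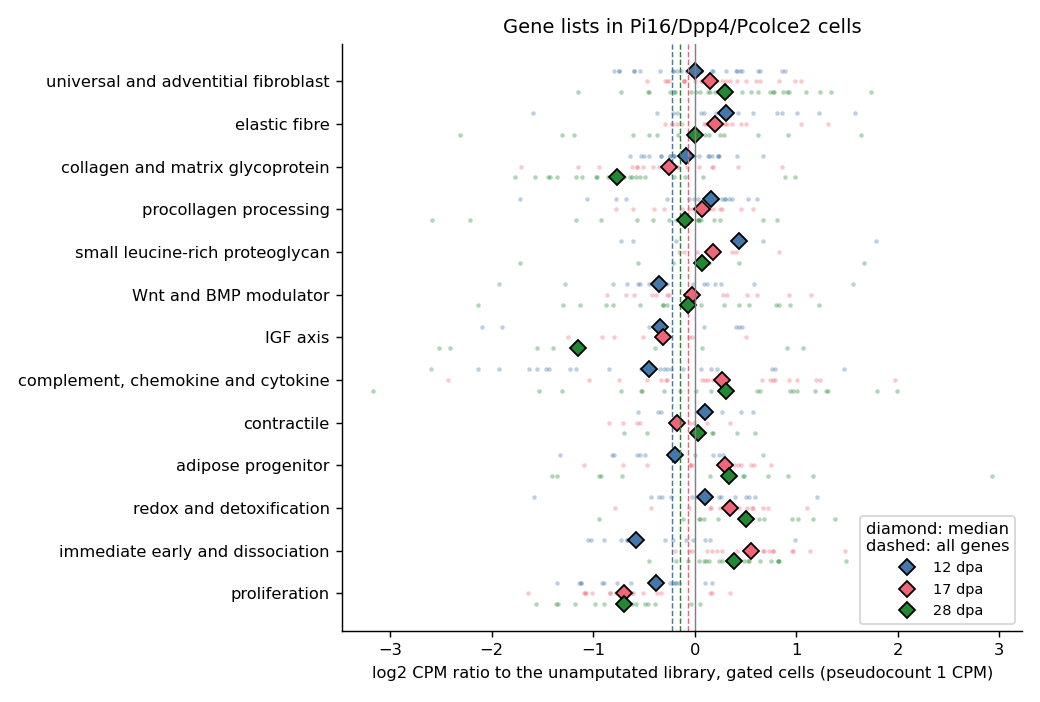
The 13 gene lists in gated cells. Small points are genes of at least 5 CPM and diamonds are list medians, placed by the log2 ratio of CPM to the unamputated library (x axis), with 12, 17 and 28 dpa in separate colours and dashed lines at the all-gene medians. The IGF diamond and the collagen diamond at 28 dpa lie furthest left.

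Collagen genes were lower in the late gated cells. Of 23 collagen and matrix glycoprotein genes, 20 were lower and 3 higher at 28 dpa, where 38.2% of all genes were higher, with a median log2 ratio of -0.76, and 7 were at least 2-fold lower and none 2-fold higher. The medians at 12 and 17 dpa were -0.08 and -0.25, and under TMM scaling the 3 medians were 0.11, -0.15 and -0.56, so the 12 dpa direction depends on the scaling. Col1a1, the gene of the main chain of type I collagen, stood at 15577, 16032, 12247 and 6088 CPM, and its log2 ratio at 28 dpa was -1.36 (95% counting interval -1.37 to -1.34). Its partner chain Col1a2 stood at 12972, 14333, 12329.7 and 7182 CPM. Col3a1, the type III collagen gene, stood at 26077, 22520.2, 26816 and 16063 CPM. The 28 dpa library was the lowest of the 4 for each of these chains. Postn, the gene of periostin, a matricellular protein of remodelling matrix, stood at 4458, 4878, 3358 and 1655 CPM, with -1.43 (95% counting interval -1.46 to -1.40) at 28 dpa. Col5a3, a minor fibrillar chain gene, stood at 513, 407, 266 and 149 CPM, and Cthrc1, a secreted gene of activated fibroblasts, at 822, 961, 554 and 381 CPM. Thbs1, which encodes an activator of latent TGF-beta, stood at 296, 209, 132 and 108 CPM.

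The matrix glycoproteins Fn1 and Tnxb ran the other way. Fn1, the fibronectin gene, stood at 3433, 2506, 4602 and 6808 CPM, and its log2 ratio at 28 dpa was 0.99 (95% counting interval 0.97 to 1.01). Tnxb, with the values given above, had 0.89 (95% counting interval 0.84 to 0.94) at 28 dpa. Both were highest in the 28 dpa library. The third gene above 0 at 28 dpa was Thbs2, at 262, 309, 226 and 278 CPM. The list median in the other stromal cells was -0.87 at 28 dpa, against -0.76 in gated cells.

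Among enzymes that process procollagen, no gene was 2-fold higher at any time. The list medians were 0.17, 0.08 and -0.09, and TMM scaling put the 28 dpa value at 0.11. Lox, a lysyl oxidase gene for collagen and elastin cross-linking, stood at 276, 332, 273 and 123 CPM, and was the 1 of 13 measured genes at least 2-fold lower at 28 dpa. Pcolce, the paralogue of the gate gene Pcolce2, stood at 255, 367, 380.4 and 447 CPM, with 0.81 (95% counting interval 0.73 to 0.89) at 28 dpa. Loxl2, another cross-linking enzyme gene, stood at 405, 335, 460.5 and 648 CPM. Pcolce and Loxl2 were highest at 28 dpa, in the same cells in which Lox was lowest. Serpinh1, the collagen chaperone gene, stood at 632, 780.2, 695 and 555 CPM.

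Elastic-fibre genes were higher in 12, 11 and 8 of 16 cases at 12, 17 and 28 dpa, where 34.2%, 40.7% and 38.2% of all genes were. Eln, the elastin gene, stood at 315, 738, 782 and 138 CPM, and its log2 ratio was 1.23 (95% counting interval 1.14 to 1.32) at 12 dpa, 1.31 (95% counting interval 1.24 to 1.39) at 17 dpa and -1.19 (95% counting interval -1.28 to -1.10) at 28 dpa. Mfap4, which encodes a microfibril-associated glycoprotein, stood at 283, 847, 251 and 56.1 CPM. Both were above the unamputated level early, Mfap4 at 12 dpa only, and below it at 28 dpa. Fbn2, the gene of fibrillin-2, a microfibril protein of developing tissue, stood at 93.6, 92.3, 20.7 and 3.11 CPM, and was detected in 55.6%, 47.2%, 18.1% and 2.33% of gated cells. At 28 dpa its ratio was -4.52 (95% counting interval -5.40 to -4.46). Ltbp4, a latent TGF-beta binding protein gene needed for elastic fibres, stood at 379, 292, 784 and 719 CPM, and Ltbp2, of the same family, at 23.1, 47.3, 33.3 and 73.9 CPM. Ltbp4 was highest at 17 dpa and Ltbp2 at 28 dpa. Mfap5 stood at 1607, 2922, 1738 and 2471 CPM. Fbn2 was not on the elastic-fibre list, so the list counts and medians given here leave it out. Of 14, 14 and 15 measured elastic-fibre genes on the list, 2, 2 and 1 were at least 2-fold higher and 1, 0 and 3 at least 2-fold lower at 12, 17 and 28 dpa. The list medians were 0.30, 0.20 and 0.00, and that at 28 dpa was -0.12 when cells were thinned first.

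Genes of the insulin-like growth factor (IGF) axis went both ways at 28 dpa, 6 of 9 lower and 3 higher, where 38.2% of all genes were higher. Igf1, the growth factor gene itself, stood at 1053, 245, 739 and 400.0 CPM, and its log2 ratio was -2.10 (95% counting interval -2.22 to -1.99) at 12 dpa and -1.39 (95% counting interval -1.45 to -1.34) at 28 dpa. Igfbp4 and Igfbp5 encode secreted proteins that bind the factor. Igfbp4 stood at 1622, 2236, 863 and 551 CPM and Igfbp5 at 2920.3, 2296, 2444 and 1311 CPM, and both were lowest at 28 dpa. Igfbp6, which encodes a binding protein that prefers IGF-II, stood at 1573, 2080.4, 2231 and 2960.4 CPM and was highest there. Igfbp2, of the same family, stood at 13.0, 17.9, 12.7 and 28.3 CPM and was also highest there. Of 6 measured genes 3 were at least 2-fold lower at 28 dpa (Igf1, Igfbp4 and Igfbp5) and none higher. The median over 9 genes was -1.15 at 28 dpa. At 12 dpa it was -0.35, and 0.075 once Scrublet doublets were removed.

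Wnt and bone morphogenetic protein (BMP) modulators gave no common direction. Sfrp2, a secreted Wnt antagonist gene, stood at 119, 89.3, 90.6 and 26.2 CPM and Sfrp1, of the same family, at 109.6, 79.7, 72.1 and 49.4 CPM. Sfrp4 stood at 74.6, 79.7, 167 and 134 CPM. Sfrp1 and Sfrp2 were thus lowest at 28 dpa and Sfrp4 highest at 17 dpa. Wnt2, a ligand gene, stood at 59.3, 58.8, 49.0 and 57.8 CPM in gated cells and at 5.60, 3.55, 5.43 and 16.1 CPM in the rest, so it was higher in gated cells in every library. Bmp5, a BMP ligand gene, stood at 124, 31.7, 150.0 and 102 CPM and was lowest at 12 dpa. Of 10, 11 and 10 measured genes, 0, 1 and 0 were at least 2-fold higher and 1, 0 and 2 lower. The list medians were -0.35, -0.02 and -0.07, and TMM scaling put the 28 dpa value at 0.12.

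Of 13 measured complement, chemokine and cytokine genes, 6 were at least 2-fold lower and none higher at 12 dpa, against 4.01% and 0.767% of all genes. Of 15, 2 were higher and 2 lower at 17 dpa, and 3 higher and 3 lower at 28 dpa. Counted without a fold threshold, 6, 16 and 15 of 23 genes were higher, where 34.2%, 40.7% and 38.2% of all genes were, so the 12 dpa count is near that of all genes. The list medians were -0.45, 0.27 and 0.31. Cxcl1, a neutrophil chemoattractant gene, stood at 208, 74.8, 361 and 409.6 CPM, and Ccl7, a monocyte chemoattractant gene, at 56.6, 52.3, 97.3 and 141 CPM. Ccl8, of the same group, stood at 15.5, 44.6, 63.9 and 56.4 CPM, with 1.98 (95% counting interval 1.74 to 2.37) at 17 dpa. Cxcl1 was lowest at 12 dpa, whereas Ccl8 was above its unamputated level in each amputated library. Cxcl14 stood at 364, 203, 217.3 and 125 CPM and Cxcl5 at 52.7, 22.9, 8.94 and 4.97 CPM, both lowest at 28 dpa. The complement gene C3 stood at 89.7, 32.4, 94.0 and 114 CPM and was lowest at 12 dpa. Immune marker genes summed to 71.0, 69.8, 199 and 196 CPM in gated cells, led by Lyz2 at 22.3, 30.9, 86.7 and 121 CPM, higher at 17 and 28 dpa, and their part in the result was not tested.

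Of 19 immediate-early and dissociation genes, 3, 16 and 16 were higher at 12, 17 and 28 dpa, where 34.2%, 40.7% and 38.2% of all genes were. The list medians were -0.58, 0.55 and 0.39. Fos, an AP-1 subunit gene, stood at 683, 368, 1337 and 984 CPM, and Zfp36, whose product destabilises cytokine mRNAs, at 94.2, 59.5, 264 and 267 CPM. Atf3, a stress-response factor gene, stood at 124, 85.8, 273 and 220.2 CPM. All 3 were lowest at 12 dpa and above the unamputated level at 17 and 28 dpa. The other stroma had list medians of -0.68, 0.40 and 0.38, the same order. These genes respond to enzymatic digestion, and a difference in tissue handling cannot be told apart from a difference between time points here.

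Most measured universal markers stayed within 2-fold of their unamputated levels. Their list medians against the unamputated library were 0.01, 0.15 and 0.30. Under TMM scaling the medians were 0.20, 0.25 and 0.50. Of 27, 27 and 28 measured genes, 0, 1 and 3 were at least 2-fold higher and 0, 0 and 1 lower. Those higher at 28 dpa were Ly6c1, Efhd1 and Tppp3, and the 1 lower was Igfbp5. Ly6a, the Sca-1 antigen gene, stood at 1000.1, 1041, 1209 and 1834 CPM, and Tppp3, a tubulin-binding protein gene of progenitor-like fibroblasts, at 239, 369, 424 and 564 CPM. Clec3b, the tetranectin gene, stood at 2029, 2716, 2138 and 2247 CPM. Dpt, the dermatopontin gene, stood at 645, 426, 754 and 668 CPM. Ly6a and Tppp3 were highest at 28 dpa, and Clec3b and Dpt stayed within a 2-fold range. Ly6a, Ly6c1 and, below, Gstm1 have close paralogues, so their counts are uncertain where reads fit more than 1 copy.

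Redox and detoxification genes were mostly higher late. Of 15 genes, 9, 12 and 13 were higher at 12, 17 and 28 dpa, where 34.2%, 40.7% and 38.2% of all genes were, with medians of 0.10, 0.35 and 0.51. Gstm1, a glutathione transferase gene, stood at 67.4, 72.1, 146 and 178 CPM, with 1.39 (95% counting interval 1.25 to 1.55) at 28 dpa. Sod3, the extracellular superoxide dismutase gene, stood at 115, 137, 184 and 259 CPM. Both were highest at 28 dpa and were the 2 of 10 measured genes at least 2-fold higher there. The adipose progenitor list had medians of -0.19, 0.30 and 0.34, and the 17 dpa value was -0.12 when cells were thinned first. Ebf2, a transcription factor gene of brown and beige adipocyte precursors, stood at 541, 215, 329.9 and 203 CPM, and Pparg, the master adipogenic factor gene, at 3.79, 0.382, 0.993 and 1.41 CPM. Icam1, an adhesion molecule gene, stood at 55.7, 31.7, 82.4 and 126 CPM and was highest at 28 dpa.

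Small leucine-rich proteoglycan genes, which encode proteins that space collagen fibrils, had medians of 0.44, 0.18 and 0.07, and the 28 dpa value was -0.31 when cells were thinned first. Prelp, which encodes a proteoglycan that links basement membranes to stroma, stood at 193, 262, 344 and 614 CPM and Ogn, the osteoglycin gene, at 352, 212.1, 358 and 106 CPM. Prelp was highest and Ogn lowest at 28 dpa. Contractile genes had medians of 0.10, -0.17 and 0.03 and none of 8 measured genes was past 2-fold in any comparison. Proliferation genes were sparse: Mki67, a marker of cycling cells, stood at 48.5, 21.7, 29.5 and 15.7 CPM and Top2a, a topoisomerase gene of dividing cells, at 48.4, 25.6, 22.5 and 18.5 CPM. Their list medians were -0.38, -0.70 and -0.70, and the median half-width of the counting intervals of the listed genes was 0.69, 0.46 and 0.42. The list medians stood at 0.44, -0.023 and -0.85 after Scrublet doublets were removed.

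The highest named ratios at 12 dpa included clock genes. Dbp, a clock-controlled transcription factor gene, stood at 17.6, 61.0, 29.5 and 112 CPM, with 1.74 (95% counting interval 1.44 to 2.16) at 12 dpa, and Nr1d1, the gene of the clock repressor REV-ERB-alpha, at 33.8, 83.9, 46.8 and 118 CPM. Both had their 2 highest values at 12 and 28 dpa, and Dbp in the rest had log2 ratios of 1.83 and 2.53 there. The hour of collection is not given in the sources used here. Nupr1, a stress-response gene, stood at 415, 1189, 612 and 1304 CPM, and Emp3, a membrane protein gene, at 584, 1429.5, 772 and 1446 CPM, again with 12 and 28 dpa above the others. Mgp stood at 379.8, 1037, 530.2 and 179.8 CPM and Kif26b, a kinesin-family gene, at 36.1, 107, 21.2 and 11.0 CPM, both highest at 12 dpa. Cdk8, a Mediator kinase gene, stood at 341, 1021, 609 and 303 CPM. On the low side at 12 dpa, Fgl2, which encodes a fibrinogen-like immune regulator, stood at 89.3, 6.10, 136 and 53.4 CPM, with -3.67 (95% counting interval -4.69 to -3.16). Sned1, a matrix protein gene, stood at 277, 60.3, 117 and 104 CPM. The glypican gene Gpc6 stood at 290.1, 74.0, 300.3 and 134 CPM. Ank3, Akap12 and Adamts19 completed this group with log2 ratios of -2.16, -1.94 and -1.93. In the other stroma the 12 dpa ratio had the same sign for each gene of this paragraph. Its log2 values were 1.43 for Cdk8, 0.91 for Emp3, 0.21 for Mgp, -2.09 for Sned1 and -1.97 for Fgl2. In gated cells these were 1.58, 1.29, 1.45, -2.18 and -3.67, and the difference was not tested.

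At 17 dpa the lowest named ratio belonged to Chl1, a neural adhesion molecule gene, which stood at 233, 68.7, 35.3 and 58.9 CPM, with -2.69 (95% counting interval -2.89 to -2.55). Ptn, the gene of the heparin-binding growth factor pleiotrophin, stood at 243, 137, 76.9 and 21.1 CPM. Robo1, a guidance receptor gene, stood at 231, 104, 79.4 and 60.7 CPM, and Jag1, a Notch ligand gene, at 117, 56.1, 43.1 and 43.2 CPM. These genes were all highest in the unamputated library. Slc39a10, a zinc transporter gene, stood at 100.4, 37.0, 32.7 and 37.5 CPM, with a log2 ratio of -1.59 at 17 dpa that turned to 0.23 when cells were thinned first. Among the genes highest at 17 dpa, Ace, the angiotensin-converting enzyme gene, stood at 72.9, 27.5, 174 and 86.6 CPM and Gpnmb, a transmembrane glycoprotein gene, at 48.1, 42.0, 127 and 72.7 CPM. Tnfaip3, a brake on NF-kappaB signalling, stood at 27.4, 6.87, 66.4 and 52.0 CPM, and Engase, a deglycosylating enzyme gene, at 22.6, 11.4, 54.6 and 40.3 CPM. Ace, Tnfaip3 and Engase shared their lowest value at 12 dpa.

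Among the genes chosen by the naming rule, Myoc and Stmn2 had the 2 highest ratios at 28 dpa. Prg4, the lubricin gene, which the rule leaves out because it belongs to a competing set of the gate, stood at 14.7, 25.9, 34.5 and 148 CPM. Myoc, which encodes the secreted glycoprotein myocilin, stood at 12.6, 30.1, 139 and 185 CPM, with 3.77 (95% counting interval 3.55 to 4.21), and was detected in 6.81%, 7.87%, 15.9% and 21.0% of gated cells. Stmn2, a microtubule regulator gene best known from neurons, stood at 22.1, 61.4, 20.7 and 189 CPM, with 3.04 (95% counting interval 2.85 to 3.35), and was detected in 8.60%, 19.1%, 5.89% and 24.8%. S100a4, a calcium-binding protein gene of fibroblasts and leukocytes, stood at 1583, 2096, 2987 and 7222 CPM, and Gsn, the gelsolin gene, at 1329, 1236, 3142 and 5090.3 CPM. Cryab, a small heat-shock protein gene, stood at 43.6, 79.7, 80.7 and 182 CPM, and Ckb, the brain-type creatine kinase gene, at 69.4, 134, 117 and 258 CPM. Galnt15, a glycosyltransferase gene, stood at 12.8, 4.58, 47.7 and 65.1 CPM. All 5 were highest in the 28 dpa library. The other stroma was also higher at 28 dpa for these genes: its log2 ratios were 3.70 for Stmn2, 2.57 for Myoc, 2.35 for Ckb, 2.35 for Galnt15, 1.99 for S100a4, 2.12 for Gsn and 1.70 for Cryab. In gated cells the ratios of Ckb, Galnt15, S100a4, Gsn and Cryab were 1.88, 2.26, 2.19, 1.94 and 2.04. The ratio was thus larger in the other stroma for Stmn2, Ckb, Galnt15 and Gsn, and the difference was not tested.

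**Figure D5:**
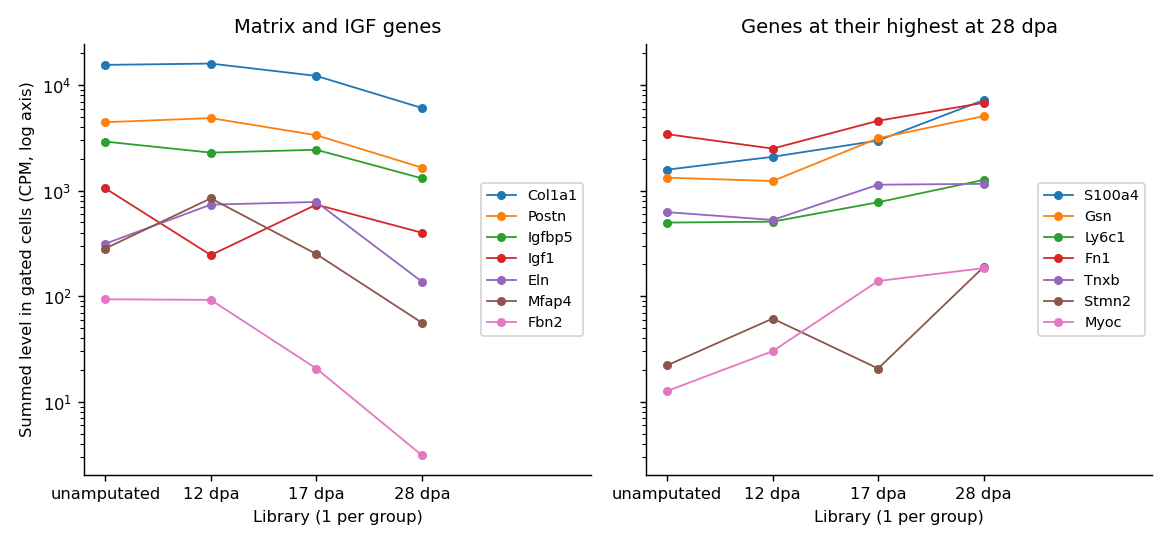
Summed level in gated cells (y axis, CPM, log axis) in the 4 libraries (x axis), with lines that only join the values of a gene. In the left plot the 7 matrix and IGF genes are lowest at 28 dpa except Igf1, lowest at 12 dpa, and in the right plot the 7 genes shown are highest at 28 dpa.

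Genes below the 20% detection asked of a named gene included Krtap8-1, a hair keratin-associated protein gene, which stood at 200.3, 0, 0.0993 and 0 CPM, and its UMIs lay in 1.43% of the unamputated gated cells. On the low side at 28 dpa, Ptn had a log2 ratio of -3.46 (95% counting interval -3.71 to -3.34). Adam12, a metalloprotease gene of activated fibroblasts, stood at 214, 143, 101 and 30.7 CPM, and Mmp16, a membrane-type metalloprotease gene, at 66.1, 22.9, 28.7 and 11.6 CPM. Kcnma1, a potassium channel gene, stood at 259, 123, 111 and 47.6 CPM. Plagl1, an imprinted zinc-finger gene, stood at 55.8, 33.6, 31.1 and 9.72 CPM and Galnt17 at 106, 53.0, 65.1 and 15.1 CPM. Each of these was highest in the unamputated library and lowest at 28 dpa. All 6 were also lower at 28 dpa in the other stroma, Adam12 with a log2 ratio of -2.46.

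Levels are also given by the combination of gate genes with a UMI, since Pcolce2 itself differed between libraries. In cells with Pi16 and no Pcolce2 UMI, which numbered 124, 99, 150 and 124, Col1a1 stood at 16317, 18863, 13876 and 8700.5 CPM and S100a4 at 1293, 1719.7, 2671 and 5007 CPM. Fbn2 stood at 133, 131, 40.5 and 11.5 CPM and Ptn at 325, 194, 96.3 and 11.5 CPM there. In these cells Col1a1, Fbn2 and Ptn were lowest and S100a4 highest at 28 dpa. The classes were split by genes the gate used, and a missing Pcolce2 UMI does not show a missing transcript, so these values are a description and the part of the changed makeup was not tested. Myoc differed: it stood at 15.8, 24.6, 37.0 and 17.9 CPM in these cells and at 12.8, 31.9, 193 and 263 CPM in cells with both genes. Eln stood at 202, 401, 275 and 53.0 CPM without Pcolce2 and at 474, 1258, 1054 and 172 CPM with both. At 28 dpa Stmn2 stood at 24.3, 154 and 386 CPM in cells with Pi16 and no Pcolce2, with both, and with Pcolce2 and no Pi16. In the late libraries the Myoc level was thus higher in cells with both genes than in cells with Pi16 and no Pcolce2. Its level in cells with Pcolce2 and no Pi16 is not given here. Stmn2 at 28 dpa was lowest in cells with Pi16 and no Pcolce2. Of the gated cells at 28 dpa, 67.4% had both genes and 89.1% had a Pcolce2 UMI. Where most UMIs were counted therefore depends on class size, and only levels are compared.

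Cells with Pcolce2 and no Pi16 UMI are described by 3 universal markers of the 34 listed. In the unamputated library, 17 such cells held 219.9 CPM of Cd34 and 96.3 CPM of Cd55, against 625 and 486 CPM in cells with Pi16 and no Pcolce2. At 28 dpa, 262 such cells held 555 CPM of Cd34 and 487 CPM of Cd55, against 746 and 418 CPM. Scara5 gave 59.3 against 389.6 CPM in the unamputated library and 362 against 309.9 CPM at 28 dpa. Cells with both genes held 604 and 762 CPM of Cd34, 428 and 542 CPM of Cd55 and 279 and 344 CPM of Scara5 in these 2 libraries. The median depths of these classes were 18636 and 20936 UMIs in the unamputated library and 10414 and 10332 UMIs at 28 dpa. The unamputated values rest on 17 cells, the genes were chosen after their values were seen, and a missing Pi16 UMI does not show a missing transcript.

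Transcripts of other cell types were low except for keratinocyte genes. The 8 keratinocyte markers summed to 1035, 1188, 969 and 1644 CPM in gated cells, led by Krt10 at 456, 521, 433 and 539 CPM. In the rest of the stroma they summed to 1357, 571, 1602 and 4663 CPM, also highest at 28 dpa. Endothelial markers summed to 42.9 to 59.5 CPM, mural markers to 50.9 to 97.7 CPM and Schwann cell markers to 10.7 to 22.8 CPM. Tendon markers summed to 149 to 356 CPM, highest at 12 dpa, led by Fmod. Cartilage and bone markers summed to 121 to 205 CPM, led by Runx2 in all 4 libraries. The defining adipocyte gene Adipoq had no UMI in the first 3 libraries, and muscle markers summed to 0.158 to 0.445 CPM. Perineurial markers summed to 30.9 to 134 CPM, mesothelial markers to 0 to 11.2 CPM and erythroid markers to 0 to 0.632 CPM. The part of these transcripts in the differences above was not tested.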

How the data were processed

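Whole-number UMI counts per gene and cell barcode were deposited by the authors, 1 filtered matrix per library, not normalized. Cell Ranger 7.1.0 and the mm10 build are named per the submitters' processing notes, and how barcodes were filtered or doublets treated is not given in the sources used here. Of 32285 listed genes, 32158 matched GENCODE M21 by gene ID. Cells were filtered and gated as described with Python 3.11.15, numpy 2.4.6, scipy 1.17.1, pandas 2.3.3 and scanpy 1.11.5. UMIs were summed over the gated cells of a library and scaled to CPM. Log2 ratios used a pseudocount of 1 CPM, with exact conditional 95% counting intervals. A gene counted as past the threshold at a 2-fold difference and at least 50 CPM in the higher library. TMM factors came from edgeR 4.0.16 in R 4.3.3, and no count model was fitted. The kept cells with the highest Scrublet scores, 12.8%, 7.05%, 8.41% and 12.2% of them, were marked as doublets. These shares were set in advance from the number of barcodes and are not measured doublet rates. The marked cells were left in and removed as an alternative. The ratio step and its counting interval were tested on simulated summed counts. The gating step was not part of that test.

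Named genes were the 8 highest and 8 lowest ratios per comparison among genes of at least 50 CPM and 20% detection, without gate genes, sex-linked, mitochondrial, ribosomal, haemoglobin and unnamed genes or markers of other cell types. Against other stroma they were the 15 highest and 10 lowest by the weakest of the 4 ratios. Members and gene lists were chosen with earlier results of these data known. Library totals were 197140774, 92313847, 95988993 and 106899985 UMIs. UMIs of 1 library are not replicates, so no p-value is given. A gene that the naming rule picks is not reported here.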

Additional observations from a re-analysis of the deposited data

Results flagged for a closer look

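Mt4, a metallothionein gene of stratified epithelium, went in opposite directions in gated cells and in the other stroma at 17 dpa. It stood at 405, 96.5, 138 and 211 CPM in gated cells and at 52.0, 34.1, 108 and 475 CPM in other stromal cells. The log2 ratios at 17 dpa were -1.54 and 1.04, and the difference was not tested. Keratinocyte markers summed to 1035 and 969 CPM in the gated cells of these 2 libraries and to 1357 and 1602 CPM in the other stroma, and their part in this result was not tested.

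Xist, the transcript of the inactive X chromosome, stood at 217.1 CPM in the 12 dpa gated cells and at 0.158 CPM or less in the other 3 libraries, although the labels describe both sexes as pooled. Y-linked genes summed to 289, 0.382, 229 and 223 CPM. Sex cannot be told apart from time at 12 dpa.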

How the results depend on the processing

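No paired analysis was possible because each group has 1 library, and leaving out a replicate could not be done for the same reason. List medians below are log2 ratios to the unamputated library, and the cause of each difference was not tested. With at least 5 gate UMIs the shares were 10.5%, 6.33%, 20.2% and 26.1%, with IGF medians of -0.21 at 12 dpa and -0.25 at 17 dpa; with at least 2 the 28 dpa share was 31.0%. With all kept cells as denominator the shares were 2.33%, 2.56%, 7.62% and 10.3%.

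Thinning to 4000 UMIs before the gate gave shares of 6.89%, 4.82%, 17.2% and 26.3% and, at 12 dpa, 155 genes past 2-fold higher and 462 lower, against 132 and 236 at 28 dpa. At 12 dpa its medians were -0.10 for IGF, -0.83 for complement and chemokine and -0.89 for immediate-early genes. At 17 dpa they were 0.065 for universal, 0.10 for elastic fibre, -0.32 for collagen, 0.093 for proteoglycan, -0.43 for contractile, 0.30 for immediate-early and -1.39 for proliferation genes, while adipose progenitor genes turned to -0.12 and Slc39a10 to 0.23. At 28 dpa they were 0.17 for universal, -0.12 for elastic fibre, -0.81 for collagen, -0.31 for proteoglycan, -0.30 for Wnt and BMP, -1.09 for IGF and 0.13 for adipose genes.

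A stricter filter on cells gave shares of 13.5% (unamputated), 24.2% (17 dpa) and 32.2% (28 dpa), and 257 genes lower at 12 dpa. Without Scrublet doublets the unamputated share was 13.6%, the IGF median turned to 0.075 at 12 dpa and was -0.56 at 17 dpa, Wnt and BMP genes were at -0.30 at 28 dpa, and proliferation genes at 0.44 and -0.023 at 12 and 17 dpa. Without Pcolce2 in the gate the shares at 17 and 28 dpa were 18.3% and 17.3%. Its medians at 17 dpa were 0.26 for universal, -0.18 for collagen, 0.32 for proteoglycan and -1.45 for proliferation genes, and at 28 dpa 0.38 for universal, 0.16 for elastic fibre and -0.86 for IGF genes.

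TMM scaling gave 94 genes higher and 81 lower at 12 dpa, and 204 and 122 at 28 dpa. Its medians at 12, 17 and 28 dpa were 0.20, 0.25 and 0.50 for universal, 0.50, 0.31 and 0.20 for elastic fibre, 0.63, 0.28 and 0.28 for proteoglycan and -0.15, -0.20 and -0.95 for IGF genes. Collagen genes turned to 0.11 at 12 dpa and were at -0.15 and -0.56 later. At 28 dpa TMM put procollagen processing at 0.11, Wnt and BMP at 0.12, contractile at 0.24, adipose at 0.54, redox at 0.71 and immediate-early genes at 0.59, the last at -0.40 at 12 dpa.

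A minimum of 20 CPM gave 58 genes higher and 315 lower at 12 dpa, 38 and 126 at 17 dpa, and 351 lower at 28 dpa. A minimum of 50 CPM for list genes gave IGF medians of -0.13 at 12 dpa and -0.78 at 28 dpa, and -0.84 for complement and chemokine and -0.51 for adipose genes at 12 dpa. It gave -0.29 for Wnt and BMP and -0.17 for proliferation genes at 28 dpa. No minimum gave 0.14 for adipose genes at 17 dpa, and the mean of per-cell CPM gave -1.09 for IGF genes at 28 dpa. A pseudocount of 5 CPM moved no list median or count beyond its counting error or 1.5 times.

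The gap of the universal list to other stroma was recomputed with alternatives chosen after seeing the data. It was 1.45 and 1.12 at 17 and 28 dpa under thinning, 1.59, 1.43 and 0.96 in the unamputated, 17 and 28 dpa libraries without Pcolce2, 1.26 at 28 dpa without doublets and 1.30 with the mean of per-cell CPM. The 12 dpa library has the fewest gated cells and the fewest summed UMIs, and the 28 dpa library the lowest median UMIs per gated cell. Counting intervals do not cover differences between animals.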
